A study of Mus musculus with 24 samples.

Results

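Homeostatic microglia genes are genes that the resident macrophages of the brain express in the undisturbed state. The 10 genes described here are P2ry12, Gpr34, Cx3cr1, Csf1r, Siglech, Selplg, Tmem119, Fcrls, Olfml3 and Sall1. They were chosen by name, and each was found as 1 of the 22274 genes in the deposited table by matching its identifier to the mouse symbol. All 10 passed the filter on low counts in every comparison, and no member was below 90 counts in any library.

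RNA was sequenced from 24 samples of mouse brain in 8 groups of 3, from male C57BL/6J mice whose age is not given in the sources used here. The hypothalamic groups were Sham, with the operation but no lesion and labelled day 0, and PEL, in which the pituitary stalk was destroyed electrically, at day 3 (PEL_3d) and day 10 (PEL_10d). Each of these was also collected with GH (Sham_GH, PEL_3d_GH, PEL_10d_GH), where the labels give the agent by these letters alone and its dose and schedule are not given in the sources used here. The hippocampal groups were HIP_Sham, labelled day 0, and HIP_PEL_10d, at day 10. The hypothalamic tissue held the supraoptic and paraventricular nuclei, the stereotaxic stalk lesion was made by passing current through a small knife, and nothing says whether a library came from 1 mouse or from a pool. Because every Sham library is labelled day 0, lesion and time of collection cannot be told apart in any comparison with Sham, while the comparisons of day 10 with day 3 hold no Sham library.

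Microglia watch the tissue with fine processes and respond to damage within hours by extending these processes, changing shape and, later, dividing. The homeostatic genes include receptors for nucleotides, chemokines, lipids and growth factors through which microglia sense neurons, and a transcription factor that maintains microglial identity. They are commonly lowered in single activated microglia, while pan-myeloid genes and the genes called disease-associated are commonly raised in the same cells.

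The libraries held 15095267 to 17973494 counts, with a median of 15883699.5. Values per library are counts scaled to library size (CPM) by the trimmed mean of M values (TMM) over all 24 libraries, called normalised counts here. A pair of libraries stood apart in tissue markers. The library labelled Sham 1 had summed normalised counts of 36.2 for 13 hypothalamus markers, 1209 for 11 hippocampus markers and 18990 for 8 choroid plexus markers, whereas the other hypothalamic libraries had 759 to 1301 for the hypothalamus markers and 272 to 399 for the hippocampus markers. The library labelled HIP_Sham 1 had 954 and 329 for these lists, whereas the other hippocampal libraries had 32.7 to 49.2 and 1271 to 1618. In both lists each of the pair thus lay close to the libraries labelled with the other region, and the cause was not tested. A fit with Sham 1 adds a library with hippocampal markers to hypothalamic Sham. The main hippocampal and region interaction fits keep HIP_Sham 1, with its hypothalamic markers. Sham 1 was kept out of the main tests, HIP_Sham 1 was kept in, and the counts of members called that rest on either library are given both ways, as are the member values whose call or direction it changed. The library titled HIP_Sham 3 carries hypothalamus in its tissue label, yet its marker sums were 1410 for hippocampus and 32.7 for hypothalamus.

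At day 3 after the lesion all 10 homeostatic genes had risen in the hypothalamus. The fold changes ran from 2.06 for Sall1 to 11.7 for Fcrls, and the values of the PEL_3d and Sham groups did not overlap for any member. Of all genes tested, 22.2% rose in this comparison (edgeR quasi-likelihood test, Benjamini-Hochberg adjusted p under 0.05), and 31.6% had PEL_3d above Sham without overlap. By day 10 every member was lower than at day 3, with no overlap between the groups, beside 20.2% of all genes. Of the 10, 7 were still above Sham at day 10, beside 7.97% of all genes tested, and P2ry12, Tmem119 and Siglech did not pass the test. The PEL_10d values lay above those of Sham 2 and 3 for all 10 members, beside 22.3% of all genes. In whole tissue, more microglia and more of each transcript per cell cannot be told apart.

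**Figure D1:**
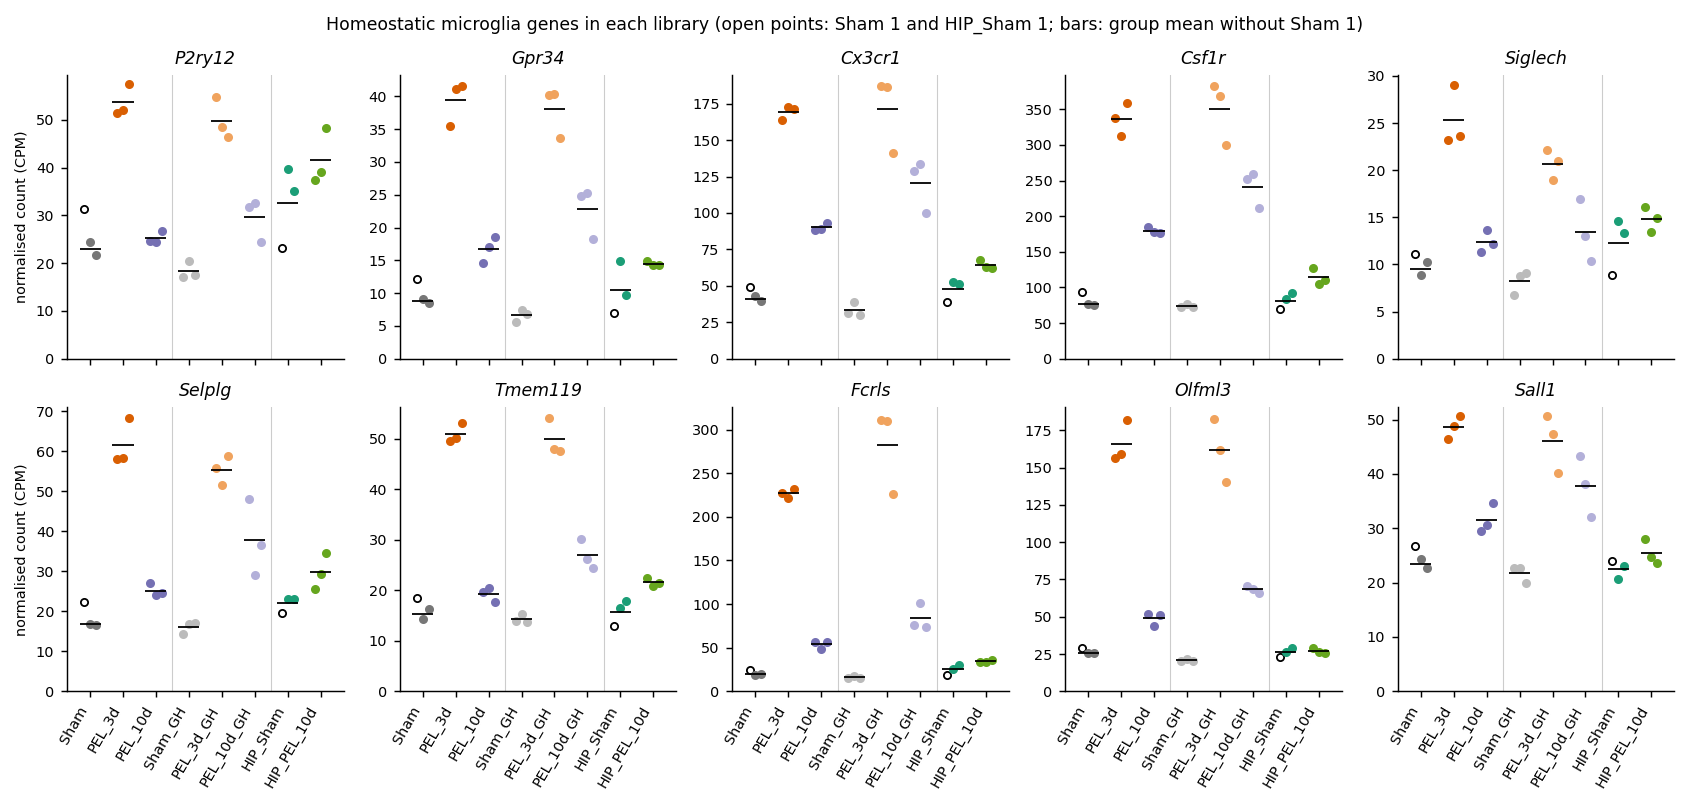
Each panel plots 1 gene, with normalised counts (CPM) on a linear axis from 0 and 1 point per library in the 8 groups. Bars are group means (without Sham 1), and open points are the libraries labelled Sham 1 and HIP_Sham 1. The PEL_3d and PEL_3d_GH points sit above all other hypothalamic points in every panel except that of Sall1, for example at 222 to 232 and 226 to 311 for Fcrls against 15.1 to 24.8 in the hypothalamic groups without a lesion.

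P2ry12 (ENSMUSG00000036353, chr3:59216272-59262871, minus strand, GRCm38, inside Med12l on the opposite strand) encodes the receptor for ADP that steers microglial processes towards injury. Its normalised counts were 24.4 and 21.7 in Sham 2 and 3, 51.5, 52.1 and 57.4 in PEL_3d, and 24.5, 24.5 and 26.8 in PEL_10d. The 3 day 3 libraries stood far above the rest, and the day 10 libraries lay just above the Sham pair. The day 3 rise was 2.32-fold (log2 fold change 1.21, SE 0.10, edgeR adjusted p = 5.3e-06), and the day 10 value against Sham was 0.13 (SE 0.10, adjusted p = 0.475). Sham 1 held 31.3, above all 3 PEL_10d libraries, and with it the day 10 value was -0.03 (adjusted p = 0.976). From day 3 to day 10 P2ry12 fell by 1.07 on the log2 scale (adjusted p = 3.38e-05).

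Gpr34 (ENSMUSG00000040229, chrX:13632089-13640858, plus strand, inside Cask on the opposite strand) encodes a receptor for lysophosphatidylserine. Its normalised counts were 9.05 and 8.48 in Sham 2 and 3, 35.5, 41.1 and 41.5 in PEL_3d, and 14.6, 17.1 and 18.5 in PEL_10d. The 3 groups did not overlap, with the day 10 libraries between the others. It was 4.47-fold higher at day 3 (log2 fold change 2.16, SE 0.12, adjusted p = 4.72e-07) and 1.91-fold higher at day 10 (0.93, SE 0.14, adjusted p = 0.00557). The day 10 call was lost with Sham 1, which held 12.1 (0.76, adjusted p = 0.146), and without Sham 2 (0.98, adjusted p = 0.0719) or Sham 3 (0.88, adjusted p = 0.0758). Leaving out either leaves 1 Sham library, which is then assumed to vary as the lesion group does, here and for the genes below, and the value itself differed little.

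Cx3cr1 (ENSMUSG00000052336, chr9:119901616-120069879, minus strand) encodes the receptor for fractalkine, a chemokine that neurons carry on their surface. Its annotated span also covers Wdr48, Gorasp1, Ttc21a, Csrnp1 and Xirp1. Normalised counts of Cx3cr1 were 42.9 and 39.7 in Sham 2 and 3, 164, 173 and 171 in PEL_3d, and 88.6, 88.8 and 93.4 in PEL_10d. Each group kept within a narrow band and the bands were far apart. The fold changes against Sham were 4.08 at day 3 (log2 fold change 2.03, SE 0.08, adjusted p = 5.25e-08) and 2.18 at day 10 (1.13, SE 0.07, adjusted p = 0.000142). With Sham 1 at 49.0, the day 10 log2 value was 1.04 (adjusted p = 0.0178).

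Csf1r (ENSMUSG00000024621, chr18:61100598-61132149, plus strand, overlapping Hmgxb3 on the opposite strand) encodes the receptor for CSF1 and IL-34, on which microglia depend for survival. Its normalised counts were 77.1 and 75.3 in Sham 2 and 3, 337, 313 and 358 in PEL_3d, and 185, 177 and 176 in PEL_10d. Day 10 lay between Sham and day 3 with no overlap on either side. The rise was 4.39-fold at day 3 (log2 fold change 2.13, SE 0.08, adjusted p = 4.7e-08) and 2.35-fold at day 10 (1.23, SE 0.07, adjusted p = 7.57e-05). With Sham 1 at 93.3, the day 10 log2 value was 1.13 (adjusted p = 0.0168).

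Siglech (ENSMUSG00000051504, chr7:55768178-55778925, plus strand) encodes a sialic acid-binding lectin that in the brain marks microglia. Normalised counts of Siglech were 8.85 and 10.3 in Sham 2 and 3, 23.2, 29.0 and 23.6 in PEL_3d, and 11.3, 13.7 and 12.2 in PEL_10d. Day 3 stood apart, and day 10 lay above the Sham pair by less than the spread within either group. The day 3 rise was 2.63-fold (log2 fold change 1.39, SE 0.14, adjusted p = 3.64e-05), and the day 10 value was 0.37 (SE 0.15, adjusted p = 0.156), or 0.30 with Sham 1 (adjusted p = 0.548).

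Selplg (ENSMUSG00000048163, chr5:113818536-113832644, minus strand) encodes PSGL-1, the ligand that leukocytes use to bind selectins. Its normalised counts were 16.9 and 16.6 in Sham 2 and 3, 58.0, 58.2 and 68.3 in PEL_3d, and 27.0, 23.97 and 24.6 in PEL_10d. The Sham pair was close together and all lesion libraries lay above it. The rise was 3.64-fold at day 3 (log2 fold change 1.87, SE 0.10, adjusted p = 4.87e-07) and 1.497-fold at day 10 (0.58, SE 0.10, adjusted p = 0.00972). The day 10 call was lost with Sham 1, which held 22.2 (0.44, adjusted p = 0.358), and with Sham 2 or Sham 3 left out, which leaves 1 Sham library (0.59 and 0.57, adjusted p = 0.108 and 0.0986).

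Tmem119 (ENSMUSG00000054675, chr5:113793729-113800516, minus strand) encodes a membrane protein used to tell microglia from infiltrating macrophages. Its normalised counts were 14.3 and 16.2 in Sham 2 and 3, 49.5, 50.3 and 53.2 in PEL_3d, and 19.7, 20.5 and 17.6 in PEL_10d. The day 3 libraries agreed closely and stood far above the rest. The day 3 rise was 3.32-fold (log2 fold change 1.73, SE 0.10, adjusted p = 5.19e-07), and the day 10 value of 0.33 did not pass the test (SE 0.12, adjusted p = 0.125). Sham 1 held 18.4, within the range of the PEL_10d libraries, and with it the day 10 value was 0.24 (adjusted p = 0.616).

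Fcrls (ENSMUSG00000015852, chr3:87250758-87263738, minus strand) encodes an Fc receptor-like scavenger protein that in the mouse brain marks microglia. Normalised counts of Fcrls were 19.1 and 19.5 in Sham 2 and 3, 228, 222 and 232 in PEL_3d, and 56.8, 48.5 and 56.3 in PEL_10d. It had the largest fold change between day 3 and Sham of the 10 members. The rise was 11.7-fold at day 3 (log2 fold change 3.55, SE 0.08, adjusted p = 1.89e-09) and 2.79-fold at day 10 (1.48, SE 0.10, adjusted p = 0.000169). With Sham 1 at 24.8, the day 10 log2 value was 1.35 (adjusted p = 0.0188). From day 3 to day 10 Fcrls fell by 2.06 on the log2 scale (SE 0.07, adjusted p = 8.51e-07), the largest fall among the members.

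The sequence before the start of Fcrls is shown beside that of P2ry12, on the same chromosome and strand, and these genes had day 3 rises of 11.7-fold and 2.32-fold. Olfml3 lies on this chromosome and strand too, with a day 3 rise between these, and its window is not shown. Both windows are from RefSeq on GRCm38.p6, run 5′ to 3′ on the minus strand from 250 bases before to 50 bases after the annotated start, and cover chr3:87263475-87263774 and chr3:59262936-59263235. Capitals mark the letters GAGGAAG, which hold the core that PU.1, the master transcription factor of macrophages, prefers.
Fcrls: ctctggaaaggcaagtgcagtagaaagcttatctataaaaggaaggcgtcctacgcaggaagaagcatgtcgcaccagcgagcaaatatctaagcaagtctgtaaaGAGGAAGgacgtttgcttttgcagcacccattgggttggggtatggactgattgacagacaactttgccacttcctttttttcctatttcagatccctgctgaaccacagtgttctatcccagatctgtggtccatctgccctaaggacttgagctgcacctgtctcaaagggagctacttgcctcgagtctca
P2ry12: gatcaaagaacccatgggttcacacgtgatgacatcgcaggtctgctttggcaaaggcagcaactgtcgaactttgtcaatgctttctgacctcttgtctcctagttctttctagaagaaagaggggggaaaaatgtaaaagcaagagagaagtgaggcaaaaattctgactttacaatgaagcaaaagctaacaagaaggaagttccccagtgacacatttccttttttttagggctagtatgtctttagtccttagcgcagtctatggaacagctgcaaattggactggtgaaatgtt
Of the 10 members, 6 had a RefSeq window (P2ry12, Fcrls, Olfml3, Siglech, Sall1 and Cx3cr1). Searched on both strands, GAGGAAG was found in 1 of these members, Fcrls, at 144 bases before the start, and in 13.6% of all 32851 promoter windows. TGTGGT, the letters that RUNX factors prefer, was found in 3 members (Fcrls, Siglech and Cx3cr1) and in 16.8% of all windows. TGANTCA, the AP-1 site, was found in 0 members and in 7.81% of all windows. These matches describe letters and are not binding sites, and no link between them and the rises was tested.

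Olfml3 (ENSMUSG00000027848, chr3:103722222-103738001, minus strand) encodes a secreted glycoprotein made by microglia. Normalised counts of Olfml3 were 25.8 and 25.6 in Sham 2 and 3, 156, 159 and 182 in PEL_3d, and 51.6, 44.0 and 51.3 in PEL_10d. The groups did not overlap, and the Sham pair differed by less than 1 unit. The rise was 6.42-fold at day 3 (log2 fold change 2.68, SE 0.09, adjusted p = 3.39e-08) and 1.90-fold at day 10 (0.93, SE 0.10, adjusted p = 0.00132). With Sham 1 at 29.3, the day 10 log2 value was 0.87 (adjusted p = 0.0277).

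Sall1 (ENSMUSG00000031665, chr8:89027235-89044162, minus strand) encodes the zinc finger transcription factor that maintains microglial identity. Normalised counts of Sall1 were 24.3 and 22.6 in Sham 2 and 3, 46.4, 48.9 and 50.6 in PEL_3d, and 29.5, 30.6 and 34.7 in PEL_10d. The 3 groups were ordered without overlap but lay closer together than those of any other member that passed both tests. The rise was 2.06-fold at day 3 (log2 fold change 1.04, SE 0.09, adjusted p = 9.98e-06) and 1.34-fold at day 10 (0.43, SE 0.10, adjusted p = 0.0351). The day 10 call was lost with Sham 1, which held 26.7 (0.36, adjusted p = 0.310), without PEL_10d 3 (0.36, adjusted p = 0.0700), and by limma with all these libraries (0.38 and 0.44 with pseudocounts of 1 and 0.1, adjusted p = 0.101 and 0.0896). It was also lost without Sham 2 or Sham 3, which leaves 1 Sham library (0.48 and 0.38, adjusted p = 0.177 and 0.237).

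Including Sham 1, all 10 members rose at day 3, beside 10.4% of all genes tested, and 4 rose at day 10, beside 1.81%. The 4 were Fcrls, Csf1r, Cx3cr1 and Olfml3. For every member the Sham 1 value was above both other Sham values, and the part of its choroid plexus and hippocampal transcripts in this was not tested. From day 3 to day 10 all 10 members fell, beside 12.2% of all genes tested, with adjusted p from 8.51e-07 to 0.00126 (edgeR), and this count was 10 with each library left out in turn and under every other alternative. After Fcrls, the falls on the log2 scale were -1.75 for Olfml3, -1.39 for Tmem119, -1.28 for Selplg, -1.22 for Gpr34, -1.07 for P2ry12, -1.01 for Siglech, -0.89 for Cx3cr1 and for Csf1r, and -0.61 for Sall1.

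The share of the day 3 excess over Sham that was left at day 10 differed between the members. It was 7.26% for P2ry12, and 3.08% without Sham 3, 11.1% without Sham 2 and -1.96% with Sham 1, so the sign of this share rested on 1 library. It was 11.1% for Tmem119, with 8.44% when Sham 1 was included. It was 16.6% for Fcrls and for Olfml3, 18.1% for Siglech, 18.8% for Selplg and 26.0% for Gpr34. The highest shares were 32.3% for Sall1, 38.3% for Cx3cr1 and 39.7% for Csf1r, and the median over the 10 genes was 18.5%, or 15.9% with Sham 1. These shares are means of 2 or 3 libraries and carry no test between genes.

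**Figure D2:**
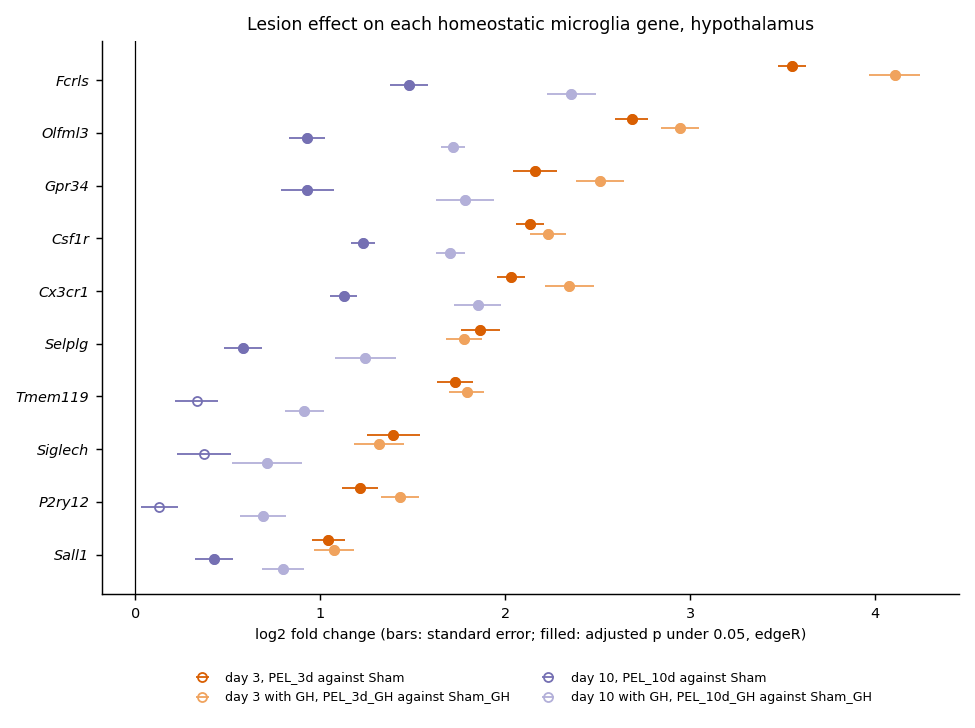
Each row is 1 member and each point a log2 fold change against the matching Sham group, with its standard error as a bar, for day 3 and day 10 without and with GH. Filled points passed an adjusted p of 0.05 (edgeR). In either arm the day 3 point lies to the right of the day 10 point for every member, and the open points are P2ry12 (0.13), Tmem119 (0.33) and Siglech (0.37) at day 10 without GH.

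Between genes, levels were compared in the deposited FPKM, which are per length. In Sham the order was Csf1r (31.4 ± 4.01, SD, n = 2), P2ry12 (16.5 ± 1.88), Cx3cr1 (12.4 ± 0.819), Fcrls (10.3 ± 0.0870) and Selplg (9.38 ± 0.0389), followed by Siglech (7.25 ± 1.41) and Tmem119 (7.03 ± 0.660), whose values overlapped. Olfml3 (4.85 ± 0.0149), Gpr34 (4.73 ± 0.141) and Sall1 (4.60 ± 0.193) were lowest, the last pair overlapping. With Sham 1 included Gpr34 (5.22 ± 0.857, SD, n = 3) came before Olfml3 (4.98 ± 0.230), and the order of the others was the same. At day 3 Fcrls came first at 134 ± 1.63 FPKM (SD, n = 3), above Csf1r at 125 ± 1.18 and Cx3cr1 at 51.9 ± 0.816. P2ry12 (35.9 ± 1.28), Selplg (34.99 ± 2.91) and Olfml3 (31.5 ± 2.40) followed, with overlap between neighbours, then Tmem119 (23.6 ± 0.692), Gpr34 (21.3 ± 1.71), Siglech (18.2 ± 2.08) and Sall1 (9.60 ± 0.348), of which Gpr34 and Siglech overlapped. At day 10 Csf1r was again first at 65.3 ± 5.77, above Fcrls at 32.0 ± 1.67 and Cx3cr1 at 27.6 ± 0.676. P2ry12 (16.4 ± 2.74) and Selplg (14.3 ± 1.18) overlapped, as did each neighbouring pair among Olfml3 (9.36 ± 0.848), Gpr34 (9.09 ± 1.04), Tmem119 (8.97 ± 0.726) and Siglech (8.79 ± 0.947), and Sall1 was last at 6.27 ± 0.496. P2ry12 thus went from the second place in Sham to the fourth at both times after the lesion. The length implied by FPKM and count together varied 1.61-fold between libraries for Csf1r and by 1.25 to 1.32-fold for P2ry12, Fcrls and Siglech, so these ranks carry an error of that size.

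Other lists of myeloid genes had medians above that of the homeostatic genes. The median log2 fold change of the 10 members at day 3 was 1.95, beside -0.01 over all genes tested. It was 3.19 for 14 pan-myeloid genes, all of which rose, 3.56 for 15 disease-associated genes, all of which rose, and 2.07 for 15 other microglia-enriched genes, of which 13 rose and 1, Sparc, fell. At day 10 the medians were 0.75 for the members, 2.17 for the pan-myeloid genes with 13 of 14 higher, 2.47 for the disease-associated genes with 15 of 15 higher, and 1.24 for the other microglia-enriched genes with 12 of 15 higher. From day 3 to day 10 they were -1.15, -1.07, -0.39 and -0.85, with 10 of 10, 13 of 14, 6 of 15 and 13 of 15 lower. With Sham 1 the medians at day 3 were 1.84, 3.07, 3.20 and 2.17, with 10, 13, 14 and 12 genes higher and none lower, and at day 10 they were 0.60, 2.04, 2.53 and 1.31, with 4, 12, 9 and 6 genes higher, for the members, pan-myeloid, disease-associated and other microglia-enriched genes in that order. The lists were chosen with results of these data known, and these counts and medians carry no test between lists.

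Among pan-myeloid genes, C1qa, C1qb and C1qc, which encode the chains of complement C1q, rose by 3.16, 3.46 and 3.45 on the log2 scale at day 3 and were 2.12, 2.34 and 2.23 above Sham at day 10. Ctss, which encodes the protease cathepsin S, was 2.71 above Sham at day 3 and 2.496 at day 10, and its change between these times was -0.21 (adjusted p = 0.385). Among the disease-associated genes, Apoe, which encodes a lipid carrier, was higher by 0.58 at day 3 and by 1.29 at day 10, and rose by 0.71 from day 3 to day 10, in the direction opposite to all 10 members. Ctsd, which encodes the lysosomal protease cathepsin D, had 3.19 at day 3 and 1.84 at day 10.

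Markers of other cells moved with the lesion too. The summed normalised count of 10 border macrophage markers was 16.1 to 19.1 in Sham 2 and 3, 86.5 to 199 in PEL_3d and 23.8 to 50.7 in PEL_10d, with 8 of 9 tested genes higher at day 3 and 2 of 8 at day 10. Of this list Cd209f was at 0 in every PEL_3d and PEL_10d library. The sum of 11 monocyte and neutrophil markers was 40.4 to 45.2, 74.1 to 106 and 50.02 to 54.1 in these groups, with 6 of 6 tested genes higher at day 3. For 5 astrocyte markers the sum was 1528 to 1592, 3284 to 3673 and 2530 to 2843, with 4 of 5 genes higher and 1 lower at day 3 and 3 of 5 higher at day 10. For 5 oligodendrocyte markers it was 3658 to 4968, 4011 to 4315 and 5950 to 6210, with 0 of 5 genes called at day 3 and 3 of 5 higher at day 10. The 8 choroid plexus markers summed to 62.9 to 72.1, 29.2 to 41.4 and 56.7 to 63.2, with 1 of 7 tested genes higher and 2 lower at day 3. The sum of 5 proliferation markers was 3.40 to 5.36, 190 to 248 and 8.59 to 12.1, with 5 of 5 genes higher at day 3. Over the same libraries the 10 members summed to 256 to 263, 1146 to 1238 and 489 to 511. Of 5 neuron markers 4 were lower at day 3, beside 18.2% of all genes, and their median was -0.35. With Sham 1 included, 7 of 9 border macrophage markers were higher at day 3 and 2 of 7 at day 10. In the same fit of day 3, 3 of 5 monocyte and neutrophil markers and 5 of 5 proliferation markers were higher, and 1 of 5 neuron markers was lower. Of the 5 astrocyte markers 4 were higher at day 3 and 2 at day 10, and of the oligodendrocyte markers 0 at either time, in the fits with Sham 1. The part of these cells in the members' rise was not tested.

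**Figure D3:**
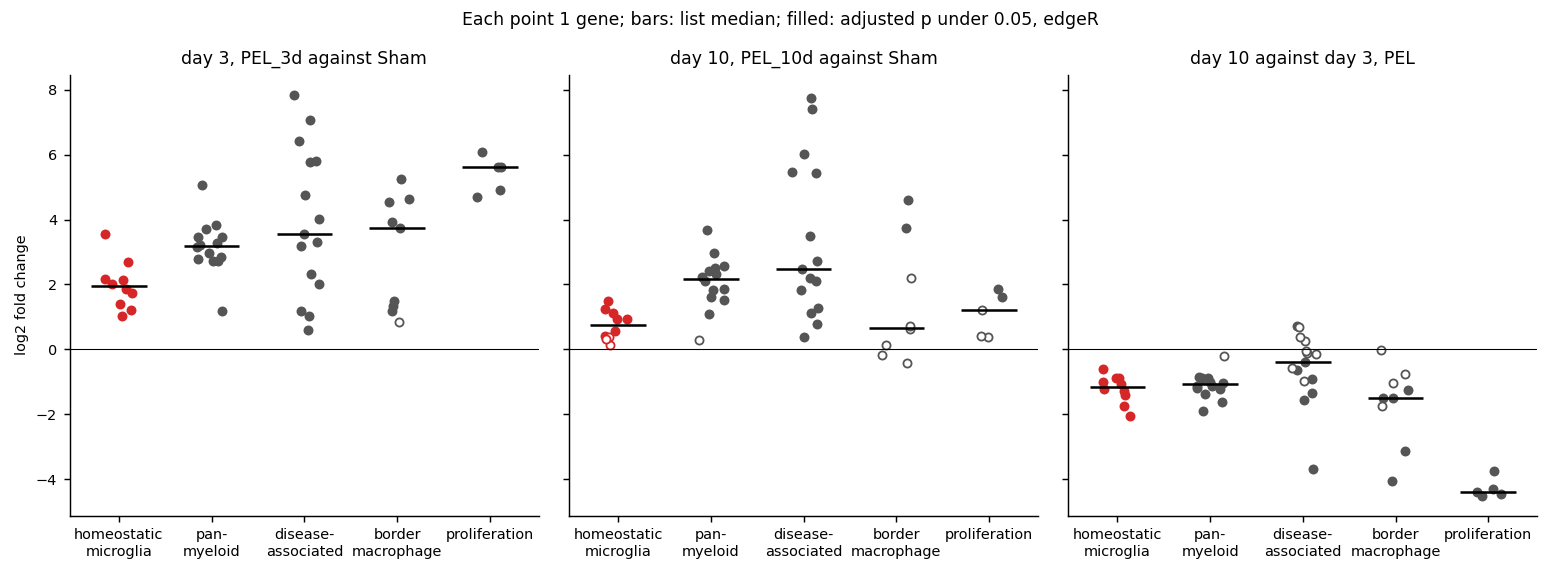
Each point is the log2 fold change of 1 gene of a list in 1 of 3 comparisons, bars are list medians, and filled points passed an adjusted p of 0.05 (edgeR). The members (red) have a median of 1.95 at day 3 and 0.75 at day 10 against Sham, where the pan-myeloid genes have 3.19 and 2.17. In the comparison of day 10 with day 3 the medians of these lists are -1.15 and -1.07.

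Within a library, the level of the members relative to pan-myeloid genes can be read without reference to the amount of tissue, but it depends on the mix of myeloid cells. Border macrophage markers summed to 16.1 to 19.1 in Sham 2 and 3, 86.5 to 199 in PEL_3d and 23.8 to 50.7 in PEL_10d. In these groups monocyte and neutrophil markers summed to 40.4 to 45.2, 74.1 to 106 and 50.02 to 54.1. The part of these cells in the relative levels below was not tested. The mean log2 normalised count of the 10 members minus that of the 14 pan-myeloid genes was 1.002 and 0.88 in Sham 2 and 3, and 0.87 in Sham 1. It was between -0.41 and -0.06 in the 3 PEL_3d libraries and between -0.55 and -0.07 in the 3 PEL_10d libraries. All lesion libraries lay below both Sham libraries, while the day 3 and day 10 libraries overlapped. P2ry12 as a share of Csf1r, in normalised counts that are not per length, was 28.8% to 31.6% in Sham, 15.3% to 16.7% in PEL_3d and 13.3% to 15.2% in PEL_10d. Fcrls divided by P2ry12 was 0.78 to 0.90 in Sham, 4.04 to 4.42 in PEL_3d and 1.98 to 2.31 in PEL_10d, 3 ranges that did not overlap.

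**Figure D4:**
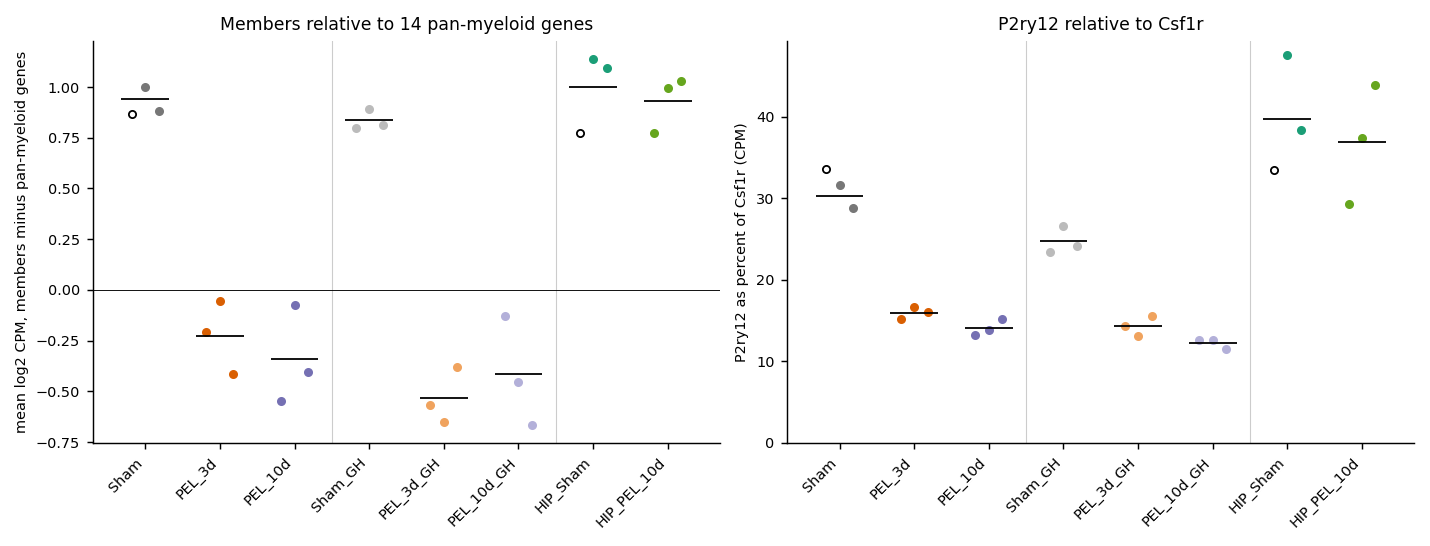
The left panel plots, for each library of the 8 groups, the mean log2 normalised count of the 10 members minus that of the 14 pan-myeloid genes, and the right panel P2ry12 as a percentage of Csf1r. Bars are group means without Sham 1, and open points are Sham 1 and HIP_Sham 1. Sham, Sham_GH and both hippocampal groups lie between 0.77 and 1.14 in the left panel, and all lesioned hypothalamic libraries lie below 0.

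A list of ligands of the members' products and genes of TGF-beta signalling did not move as a block. At day 3, of 8 such genes 5 were higher, beside 22.2% of all genes tested, and 2 were lower, beside 18.2%. Among the 5 is Selp, which passed the filter on low counts through the PEL_3d libraries alone, so its call cannot be weighed against that share. Tgfb1, the growth factor microglia need to keep their homeostatic state, was 2.79 above Sham on the log2 scale (adjusted p = 1.77e-06), and its receptor genes Tgfbr1 and Tgfbr2 were 1.04 and 1.87 above. Csf1, a ligand of Csf1r, was higher by 1.04 (adjusted p = 0.000182), while Il34, the ligand of Csf1r made by neurons, was -0.39 (adjusted p = 0.0113). Cx3cl1, the ligand of Cx3cr1, was -0.44 (adjusted p = 0.000322). Smad3, which carries the TGF-beta signal, was 0.29 and did not pass the test (adjusted p = 0.0507). Selp, which encodes the selectin bound by the product of Selplg, was called higher but had at most 3 counts in each Sham library, so no fold is given. At day 10, 4 of 7 tested genes were higher than Sham and 0 were lower, with Tgfb1 at 1.55, Tgfbr2 at 1.31, Tgfbr1 at 0.69 and Csf1 at 0.39, and Il34 and Cx3cl1 did not pass the test (-0.15 and -0.21, adjusted p = 0.492 and 0.145). From day 3 to day 10, 5 of 8 fell and Cx3cl1 rose by 0.24 (adjusted p = 0.0472). With Sham 1 the counts were 5 higher and 0 lower at day 3, where Il34 (adjusted p = 0.0656) and Cx3cl1 (0.112) no longer passed, and 1 of 7 higher at day 10, Tgfb1 (1.47, adjusted p = 0.0469).

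With GH, the lesion comparison was made in separate libraries with their own Sham_GH group, all 3 of which were used. All 10 members rose at day 3, beside 26.9% of all genes tested, and all 10 at day 10, beside 17.7%. Fcrls had 15.8, 17.9 and 15.1 in Sham_GH, 311, 310 and 226 in PEL_3d_GH, and 75.6, 102 and 73.1 in PEL_10d_GH, and it was 17.2-fold higher at day 3 and 5.12-fold at day 10 (log2 4.11 and 2.36, SE 0.14 and 0.13). P2ry12 had 17.1, 20.5 and 17.5 in Sham_GH, 54.7, 48.4 and 46.4 in PEL_3d_GH, and 31.8, 32.7 and 24.4 in PEL_10d_GH. All PEL_10d_GH libraries lay above all Sham_GH libraries for both genes. The day 10 rise of P2ry12 was 1.61-fold (log2 0.69, SE 0.13, adjusted p = 0.00265).

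Csf1r had 73.1, 77.1 and 72.5 in Sham_GH, 383, 369 and 299 in PEL_3d_GH, and 252, 260 and 212 in PEL_10d_GH. Olfml3 had 20.6, 21.4 and 20.6 in Sham_GH, 182, 162 and 140 in PEL_3d_GH, and 70.8, 68.6 and 66.01 in PEL_10d_GH. PEL_3d_GH 3 was the lowest of its group for 8 of the 10 members, all but Selplg and Siglech. The same library was also the lowest in the summed proliferation markers (137 against 281 and 294) and border macrophage markers (121 against 244 and 250), and the part of these cells in its lower member values was not tested.

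Cx3cr1 had 31.1, 39.1 and 30.2 in Sham_GH, 187, 187 and 141 in PEL_3d_GH, and 128, 134 and 99.6 in PEL_10d_GH. Selplg had 14.2, 16.9 and 17.1 in Sham_GH, 55.7, 51.5 and 58.8 in PEL_3d_GH, and 48.0, 29.2 and 36.7 in PEL_10d_GH. For Selplg the PEL_10d_GH libraries were the most widely spread of its hypothalamic groups relative to their mean. The remaining members in PEL_10d_GH ranged from 18.2 to 25.3 for Gpr34, 24.4 to 30.2 for Tmem119, 10.4 to 17.0 for Siglech and 32.0 to 43.2 for Sall1. In Sham_GH they ranged from 5.64 to 7.40, 13.7 to 15.3, 6.76 to 9.14 and 19.9 to 22.8, in the same order. For all 10 members PEL_10d_GH lay above Sham_GH without overlap, beside 23.6% of all genes. At day 10 with GH the log2 values against Sham_GH were 1.85 for Cx3cr1, 1.78 for Gpr34, 1.72 for Olfml3, 1.70 for Csf1r, 1.24 for Selplg, 0.91 for Tmem119, 0.80 for Sall1 and 0.71 for Siglech. The call for Siglech was lost without Sham_GH 1 (adjusted p = 0.0747).

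With GH, 8 of the 10 members fell from day 3 to day 10, beside 10.8% of all genes tested. Fcrls fell by 1.76 on the log2 scale, Olfml3 by 1.24, Tmem119 by 0.89, P2ry12 by 0.75, Gpr34 by 0.74, Siglech by 0.62, Csf1r by 0.54 and Cx3cr1 by 0.50. The call for Cx3cr1 was lost in 5 of the 6 fits with 1 library left out (adjusted p from 0.0754 to 0.162) and by limma, that for Siglech in 5 of 6 (0.0543 to 0.162), that for Csf1r in 2 of 6 (0.0612 and 0.0796) and by limma (0.165 and 0.162), and that for Gpr34 in 1 of 6 (0.0574). The calls for Fcrls, Olfml3, Tmem119 and P2ry12 were kept in all of these. Selplg (-0.54, adjusted p = 0.0558) and Sall1 (-0.28, adjusted p = 0.171) did not pass the test, while Selplg passed by DESeq2 (adjusted p = 0.0135), in 1 fit over all hypothalamic groups (0.0064), with no filter on low counts (0.0473) and without PEL_10d_GH 1 (0.0121). The count was 4 without PEL_3d_GH 1 and 5 without PEL_3d_GH 2, where 4.7% and 7.14% of all genes passed in either direction, beside 15.6% with all libraries. The share of the day 3 excess left at day 10 was 25.3% for Fcrls, 33.9% for Olfml3, 35.4% for Tmem119, 35.8% for P2ry12, 42.1% for Siglech, 51.3% for Gpr34, 55.7% for Selplg, 60.5% for Csf1r, 63.1% for Cx3cr1 and 65.9% for Sall1. Without PEL_10d_GH 1 the share for Siglech was 27.9%. The median was 46.7%, beside 18.5% without GH, with a higher share with GH for each of the 10 members. With 1 library left out, the median with GH ran from 38.0% (without PEL_10d_GH 1) to 55.9% (without PEL_10d_GH 3). The members moved together, so they are not 10 separate observations, and these shares carry no test.

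Whether GH itself changed these genes was asked between groups of the same day. At day 3, 0 of the 10 members differed between PEL_3d_GH and PEL_3d (edgeR, beside 0.027% of all genes tested), their median log2 difference was -0.03, and at an unadjusted p under 0.05 Fcrls was higher (0.32) and Siglech lower (-0.28), beside 3.86% and 2.94% of all genes. Without PEL_3d_GH 3, Fcrls passed the adjusted test (0.45, adjusted p = 0.0234), beside 0.376% of all genes.

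At day 10, 0 of the 10 members passed in edgeR between PEL_10d_GH and PEL_10d, where 0% of all genes did, and adjusted p ran from 0.350 to 0.947. All 10 differences were positive, from 0.11 for Siglech to 0.63 for Fcrls, with a median of 0.43. At an unadjusted p under 0.05, 7 members were higher, beside 3.73% of all genes. For 6 members the groups did not overlap, beside 6.15% of all genes with PEL_10d_GH above PEL_10d. Cx3cr1, for example, had 88.6, 88.8 and 93.4 without GH and 128, 134 and 99.6 with it, and Csf1r had 185, 177 and 176 against 252, 260 and 212. Olfml3 had 51.6, 44.0 and 51.3 against 70.8, 68.6 and 66.01. The summed pan-myeloid genes had 874 to 1227 without GH and 1315 to 1618 with it. Other microglia-enriched genes had 2113 to 2234 and 2539 to 2656, and oligodendrocyte markers 5950 to 6210 and 6869 to 7883. The sums of disease-associated genes, border macrophage markers and astrocyte markers overlapped. The part of these cells in the member differences was not tested. By DESeq2, 3 members passed, beside 0.446% of the 8751 genes for which it gave an adjusted p (Siglech had none). They were Olfml3 (0.48, adjusted p = 0.00119), Fcrls (0.63, adjusted p = 0.00161) and Csf1r (0.42, adjusted p = 0.00164). PEL_10d_GH 3, which had a summed normalised count of 5358 for anterior pituitary markers where the other hypothalamic libraries apart from Sham 1 had 13.3 to 97.8, was the lowest of its group for 9 of the 10 members. Without it all 10 differences were again positive, with a median of 0.52.

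In mice with no lesion, 0 of the 10 members differed between Sham_GH and Sham in edgeR, beside 1.09% of all genes tested. All 10 differences were negative, from -0.40 for Gpr34 to -0.04 for Csf1r (-0.38 and -0.39 by limma with pseudocounts of 1 and 0.1), with a median of -0.23, and 5 had an unadjusted p under 0.05, beside 6.69% of all genes in that direction. They were Olfml3, P2ry12, Cx3cr1, Gpr34 and Fcrls. With Sham 1 the count was 0 (beside 0% of all genes), and the median was -0.33. Without Sham_GH 2, Cx3cr1 passed the test (-0.43, adjusted p = 0.0351), beside 1.32% of all genes.

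The difference between the day 3 to day 10 changes with and without GH was tested as an interaction. By edgeR it passed for 0 of the 10 members, with every adjusted p at 0.9998, and for 0% of all genes. The estimates were all positive, from 0.32 for Fcrls to 0.75 for Selplg, with a median of 0.41, beside 0.24 for the pan-myeloid genes, -0.21 for the disease-associated genes and 0.02 for all genes. With 1 library left out, Fcrls ranged from 0.16 to 0.41 and Selplg from 0.53 to 0.91. At an unadjusted p under 0.05, 7 members passed, beside 1.9% of all genes. DESeq2 also called 0 members, with adjusted p from 0.584 to 0.9997.

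**Figure D5:**
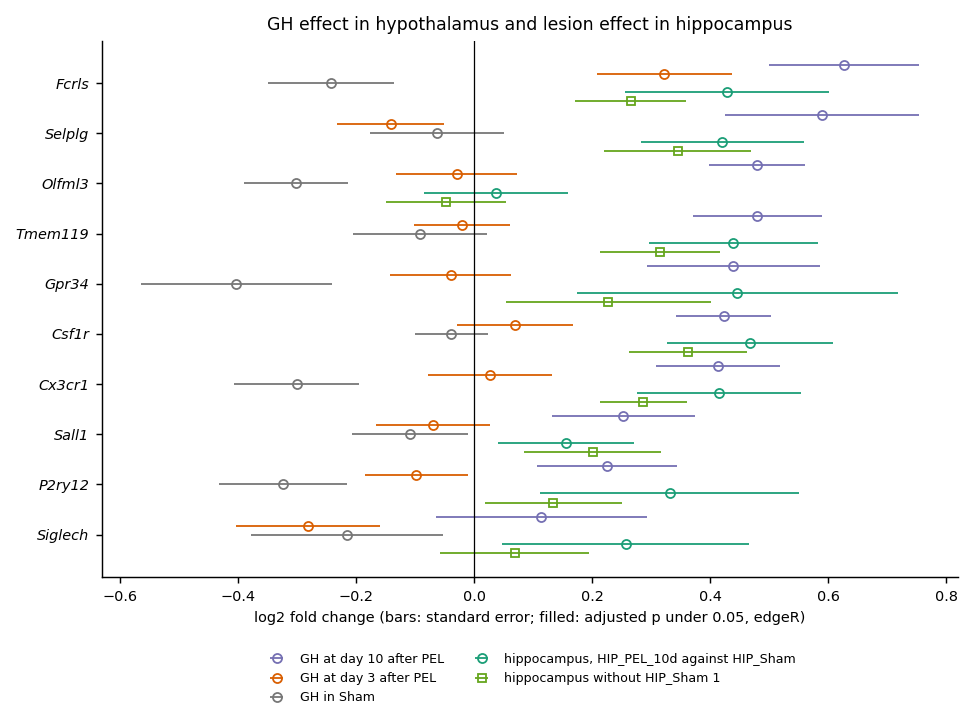
Each row is 1 member and each point a log2 fold change with its standard error, for GH against no GH at day 10, at day 3 and in Sham, and for HIP_PEL_10d against HIP_Sham with and without HIP_Sham 1 (squares). No point is filled, since none passed an adjusted p of 0.05 in edgeR. The day 10 GH points lie right of 0 for all 10 genes (0.11 to 0.63) and the Sham GH points lie left of 0 (-0.40 to -0.04).

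In the hippocampus, a region away from the lesion, 0 of the 10 members differed between HIP_PEL_10d and HIP_Sham in edgeR, where 0% of all genes passed. The differences were positive for all 10, from 0.04 for Olfml3 to 0.47 for Csf1r, with a median of 0.42, which was also the median of the pan-myeloid genes. At an unadjusted p under 0.05, 5 members were higher, beside 3.63% of all genes, and DESeq2 and limma called 0. Csf1r had 69.4, 83.7 and 91.7 in HIP_Sham and 127, 105 and 110 in HIP_PEL_10d. Cx3cr1 had 38.7, 52.8 and 51.1 against 67.5, 62.9 and 61.9. These genes, with Fcrls, Tmem119 and Selplg, had groups that did not overlap, beside 10.9% of all genes in that direction.

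P2ry12 had 23.2, 39.8 and 35.2 in HIP_Sham and 37.4, 39.2 and 48.3 in HIP_PEL_10d, and these groups overlapped. HIP_Sham 1, whose markers go against its hippocampal label, was the lowest of the libraries labelled hippocampus for 9 of the 10 members, and Sall1, with 24.01, 20.6 and 23.1 in HIP_Sham, was the exception. Without HIP_Sham 1 the count was again 0, beside 6.15% of all genes tested, the median difference was 0.25, Olfml3 turned to -0.05 and the lowest adjusted p was 0.0593, for Cx3cr1 (0.29, SE 0.07). The choroid plexus markers summed to 6178 and 7665 in HIP_Sham 2 and 3, 56.8 in HIP_Sham 1 and 81.8 to 1159 in HIP_PEL_10d, and the part of this tissue in the member values was not tested.

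At day 10 the 2 regions of lesioned mice differed for 6 of the 10 members, beside 60.6% of all genes tested. Olfml3 (0.83), Fcrls (0.63), Csf1r (0.63), Cx3cr1 (0.47) and Sall1 (0.29) were higher in the hypothalamus, and P2ry12 was lower (-0.74, SE 0.10, adjusted p = 0.000253). The call for Sall1 was lost by DESeq2 (adjusted p = 0.0524) and without HIP_PEL_10d 2 (0.118), HIP_PEL_10d 3 (0.136), PEL_10d 2 (0.0689) or PEL_10d 3 (0.139). Over all alternatives 5 to 7 members were called, beside 50.7% to 62.4% of all genes, with Gpr34 called by limma (0.38 on log2(FPKM + 1), adjusted p = 0.0113) and Selplg called lower without HIP_PEL_10d 1 (-0.38, adjusted p = 0.0156). By limma on log2(FPKM + 1) Tmem119 and Siglech turned to 0.049 and 0.016, and Selplg was -0.019 (adjusted p = 0.881). The median over all genes tested was 0.21 in that limma fit and 0.019 in the main fit. The limma values, that of Gpr34 among them, are thus not set against the same centre. P2ry12 had 24.5, 24.5 and 26.8 in PEL_10d, all below the 37.4, 39.2 and 48.3 of HIP_PEL_10d. Without a lesion it had 24.4 and 21.7 in Sham 2 and 3, also below the 39.8 and 35.2 of HIP_Sham 2 and 3. The libraries with markers against their labels, Sham 1 and HIP_Sham 1, had 31.3 and 23.2. A regional gap in P2ry12 was thus present without the lesion too. Siglech (-0.28), Selplg (-0.26), Tmem119 (-0.19) and Gpr34 (0.19) did not pass the test (adjusted p from 0.0719 to 0.192). Of the pan-myeloid genes 13 of 14 were higher in the hypothalamus, with a median of 1.57, where the members had 0.24. In FPKM P2ry12 was second in HIP_PEL_10d (25.0 ± 3.94, SD, n = 3) after Csf1r (38.6 ± 6.92), and above Cx3cr1 (16.9 ± 0.836), Fcrls (16.5 ± 0.648) and Selplg (14.5 ± 1.80), of which each neighbouring pair overlapped.

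Relative to pan-myeloid genes, the members were at 0.77 to 1.14 on the log2 scale in HIP_Sham and 0.77 to 1.03 in HIP_PEL_10d, and these ranges overlapped through HIP_Sham 1 alone, since HIP_Sham 2 and 3 had 1.14 and 1.09. P2ry12 as a share of the Csf1r normalised count was 33.4% to 47.5% in HIP_Sham and 29.3% to 43.9% in HIP_PEL_10d, above all lesioned hypothalamic libraries, which had 11.5% to 16.7%.

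Whether the day 10 lesion effect differed between the regions was tested as an interaction over the libraries of both. It passed for 1 of the 10 members, Olfml3 (0.89, SE 0.16, edgeR adjusted p = 0.0331), beside 1.88% of all genes tested. The next were Fcrls (1.05, SE 0.22, adjusted p = 0.0502), Csf1r (0.76, adjusted p = 0.0520) and Cx3cr1 (0.71, adjusted p = 0.0703). The other 6 lay between -0.20 for P2ry12 and 0.48 for Gpr34, and with 1 library left out these ends ranged from -0.37 (without HIP_Sham 2) to -0.031 (without HIP_Sham 1) for P2ry12 and from 0.15 (without HIP_Sham 2) to 0.68 (without HIP_Sham 1) for Gpr34. The median was 0.38 for the members, beside 1.75 for the pan-myeloid genes, of which 10 of 14 passed. With Sham 1, 0 members passed, beside 0.63% of all genes (Olfml3 0.82, adjusted p = 0.0523). Without HIP_Sham 1, 4 passed, beside 10.7%, which were Fcrls (1.19), Olfml3 (0.95), Csf1r (0.84) and Cx3cr1 (0.81). By DESeq2 4 members passed, beside 5.49%, in 1 fit over all 8 groups 4, beside 5.19%, with a mean count of at least 50 3, beside 2.55%, and by limma 3 with either pseudocount of 1 or 0.1, beside 2.3% and 2.01%. The call for Olfml3 was lost without 8 of the 11 libraries in turn (0.81 to 0.88, adjusted p from 0.0583 to 0.207). Among these are Sham 2 and Sham 3, either of which leaves 1 hypothalamic Sham library, with Olfml3 at 0.87 and 0.85 and 0 members called.

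The 10 members rose and fell together across the hypothalamic libraries. Over the 17 hypothalamic libraries without Sham 1, Pearson's r of log2 FPKM between members was 0.876 to 0.992 over 45 pairs, with a median of 0.949. These points share libraries and a common response to the lesion, so r is given as a description. Among 13395 other genes, those whose pattern was most like the members' mean were Itgam (r = 0.991), which encodes the integrin CD11b of myeloid cells, Bin2 (0.987), Cd34 (0.985) and Ly86 (0.985). They were followed by Dock8 (0.984), Ctsc (0.982), Pik3cg (0.981), Dock2 (0.981), Itgb5 (0.981) and Lyn (0.980). Itgam had a mean of 4.89 FPKM in Sham, 39.0 in PEL_3d and 10.5 in PEL_10d.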

How the data were processed

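Per the labels, total RNA from frozen brain tissue was made into libraries with the SMARTER mRNA-Seq kit. Per the methods of the study, the authors aligned reads with Hisat2 and counted them with featureCounts, and the submitters' processing notes name GRCm38 and mm10. Strand setting is not given in the sources used here. The authors deposited estimated counts, of which 8.22% were not whole, so they were rounded. The deposited FPKM values were normalised by the authors to gene length and to library depth, and were taken without change. Of 22274 identifiers, 22219 matched a symbol and 55 did not.

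Each comparison was fitted with edgeR 4.0.16 in R 4.3.3 (quasi-likelihood test, TMM, filterByExpr with a minimum count of 10, Benjamini-Hochberg over all genes tested, threshold 0.05) on its own groups, and interactions on theirs. SE is the log2 fold change divided by the square root of the F statistic. Sham 1 was left out of the main fits because the study left out 1 hypothalamic Sham library as an outlier and Sham 1 stood apart. Separate animals behind libraries are not stated, so p-values measure the spread between these samples. Groups not overlapping means every value of one lies above every value of the other. The edgeR, DESeq2 and limma (log2(FPKM + 1)) fits were tried on simulated counts for PEL_10d against PEL_3d and PEL_10d against Sham only. The other comparisons, the interactions and the other settings were not simulated. The members, lists and comparisons were chosen with earlier results of these data known, and named list genes are the 4 of each list with the highest mean FPKM and the ligands and signals, of which some are not reported here. Alternatives were DESeq2 1.42.0, other size factors and filters, limma 3.58.1 on log2(FPKM + 1) and log2(FPKM + 0.1), a replicate block, 1 fit over a tissue, and each library left out. Groups of 3 against 3 and of 3 against 2 allow no exact permutation p below 0.1 and 0.2, so none is given.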

Additional observations from a re-analysis of the deposited data

Results flagged for a closer look

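The lesion effect at day 10 on Olfml3 differed between hypothalamus and hippocampus by a test of the difference itself, an interaction term in edgeR. It was larger in the hypothalamus by 0.89 on the log2 scale (SE 0.16, adjusted p = 0.0331). The normalised counts were 25.8 and 25.6 in Sham 2 and 3 and 51.6, 44.0 and 51.3 in PEL_10d, against 23.1, 26.4 and 29.0 in HIP_Sham and 29.3, 26.6 and 25.5 in HIP_PEL_10d. The lesion groups lay apart in the hypothalamus and overlapped in the hippocampus. With Sham 1 the value was 0.82 (adjusted p = 0.0523) and without HIP_Sham 1 it was 0.95. The call was also lost with the replicate number as a block (0.88, adjusted p = 0.0719) and when any of 8 of the 11 libraries was left out, namely HIP_PEL_10d 2 and 3, HIP_Sham 2 and 3, PEL_10d 1 and 3, and Sham 2 and 3 (0.81 to 0.88, adjusted p from 0.0583 to 0.207).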

How the results depend on the processing

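The rise of all 10 members at day 3 without and with GH, and their fall from day 3 to day 10 without GH, held under every alternative run. Shares in this paragraph are of all genes tested in the same fits, in either direction. At day 10 against Sham the count of 7 (9.4%) was 4 with Sham 1 (1.84%), and 4 to 7 with 1 library left out (1.36% to 10.1%). With GH, the 8 members lower at day 10 than at day 3 (15.6%) were 4 to 8 with 1 library left out (4.7% to 29.6%), 6 by limma (12.4% and 12.7%), 7 with the replicate block (7.47%) and 9 by DESeq2 (19.6%), with no filter (13.2%) and in 1 fit over all groups of a tissue (26.9%). For GH against no GH the count of 0 was 3 by DESeq2 at day 10 (0.446%), 0 to 1 with 1 library left out at day 3 (0.00671% to 0.376%) and 0 to 1 in Sham (0.304% to 1.32%). The region interaction, 1 member in the main fit, was called for 4 by DESeq2 (5.49%), 3 with a mean count of at least 50 (2.55%), 4 in 1 fit over all groups of a tissue (5.19%), 3 by limma with pseudocounts of 1 and 0.1 (2.3% and 2.01%), 0 with Sham 1 (0.63%) and 0 to 4 with 1 library left out (0% to 10.7%). The cause of these differences was not tested. HIP_PEL_10d against HIP_Sham had no separate fit over its tissue, since the main fit is that fit.

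Libraries with the same replicate number were not clearly more alike than those with different numbers. Over 77 pairs with the same number in different groups, the deviations from the group means correlated between -0.435 and 0.361 (median 0.02), with 13 over 0.1. Over 154 pairs with different numbers they correlated between -0.39 and 0.47 (median -0.00065), with 29 over 0.1. With the replicate number as a block, the region interaction was called for 0 members (Olfml3 0.88, adjusted p = 0.0719), Siglech from day 3 to day 10 with GH and Sall1 between regions lost their calls (adjusted p = 0.0599 and 0.0592), and Selplg in Sham_GH against Sham turned to 0.016.

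Reversed signs were seen in differences that no test called. By limma with pseudocounts of 1 and 0.1, P2ry12 at day 10 against Sham was -0.011 and -0.012 (-0.030 with Sham 1), Cx3cr1 and Csf1r in PEL_3d_GH against PEL_3d were -0.021 and -0.14 with the first and -0.022 and -0.14 with the second, Olfml3 in the hippocampus was -0.0057 and -0.0072, and between regions Tmem119 was 0.049 and 0.054 and Siglech 0.016 and 0.019. In these region fits the median over all genes tested was 0.21 and 0.26, beside 0.019 in the main fit. With 1 library left out, PEL_3d_GH against PEL_3d ranged from -0.00059 to 0.16 for Csf1r, -0.042 to 0.14 for Cx3cr1, -0.11 to 0.036 for Gpr34, -0.13 to 0.057 for Olfml3, -0.15 to 0.015 for Sall1 and -0.085 to 0.013 for Tmem119. Sham_GH against Sham ranged from -0.11 to 0.016 for Selplg and -0.18 to 0.00025 for Tmem119, Siglech from -0.097 to 0.27 for GH at day 10 and from -0.030 to 0.28 in the region interaction, and Olfml3 in the hippocampus from -0.048 to 0.10. The share of the day 3 excess left at day 10 was recomputed after the data were seen, and with Sham 1 it turned to -1.96% for P2ry12. At this depth the lowest member count was 90, for Gpr34 in Sham_GH 1.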
